A study of Homo sapiens with 17 samples.

Results

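The proteins of the cytosolic ribosome are encoded by a family of short, highly expressed genes named RPL (large subunit), RPS (small subunit) and RPLP (the stalk of the large subunit). Their mRNAs were examined here in RNA sequencing of Ishikawa cells, a line derived from a human endometrial adenocarcinoma that is used as a model of the endometrial epithelium. Members were the protein-coding genes with an RPL, RPS, RPLP or RPSA name, without the RPS6K kinases and without copies on the Y chromosome. This gave 85 of the 60662 genes of the count table, with 43 large subunit genes, 31 small subunit genes, 3 stalk genes and 8 paralogues that carry an extra L in their names.

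Control cultures (n = 3) received control medium without treatment. Vehicle control cultures (n = 3) received ethanol (EtOH, given as 70%) together with a component called Nap. Nap only cultures (n = 2) received Nap, and P4 cultures (n = 3) received Nap and progesterone (P4). Each treatment lasted 24 h. The 70% is from the authors' methods, and a figure caption for their microRNA measurements gives a lower percentage. The authors state the highest progesterone dose of their study for the RNA sequencing, but the labels do not say which dose these P4 cultures received. Nap is not defined in the labels, and ethanol is named in them only for the vehicle control, so whether the P4 cultures also held ethanol is not stated, and a difference in ethanol cannot be told apart from one in P4. A further 6 cultures were treated with recombinant PSAT1 protein, with or without P4, but their labels contradict each other on which, so they were assigned no condition and entered no test. All cultures came from 1 established cancer cell line, and whether the replicates were grown on separate occasions is not stated beyond the name biological replicate.

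Library totals ran from 4999521 counts (vehicle control replicate 1) to 19704493 counts (Control replicate 2), and the members together held 90370 to 464230 counts per library. The epithelial markers EPCAM, KRT8, KRT18, KRT19 and CDH1 were present in all 11 labelled libraries, with EPCAM between 167.5 and 217.4 CPM (read counts relative to the TMM-scaled library total). Among 6 markers of other cells, DCN, PECAM1 and DES reached no more than 3 counts in any labelled library and PTPRC no more than 12, whereas the collagen genes COL1A1 (20.1 to 32.7 CPM) and COL3A1 (40.6 to 132.9 CPM) were detected in all of them.

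A ribosome holds a single copy of nearly every ribosomal protein, so cells make these proteins in matched amounts, and the family is known for mRNAs that are abundant, stable and regulated together. Most of its mRNAs begin with a C followed by a run of pyrimidines, the 5′ terminal oligopyrimidine (TOP) motif, through which the growth kinase mTOR and the RNA-binding protein LARP1 control their translation. The transcription factor MYC is a known activator of the family. RNA sequencing of total RNA measures the mRNA amount and not its translation.

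The transcript starts of 9 members are shown, because the family is defined at the RNA level by this start. They are members called in P4 against vehicle control whose cultures did not overlap. Of these, the 5 with the highest log2 fold changes and the 4 that were lower were taken. The sequences are from RefSeq (GRCh38.p14) and cover 10 bases before the annotated start and 20 bases from it, 5′ to 3′. Capitals mark the unbroken run of C and T that begins with a C at the start itself, and a sequence without capitals has no such run. The first 5 were higher in P4 than in vehicle control cultures, the last 4 were lower.
RPL4 (chr15:66504836-66504865, minus strand): cgggagtggtaagcacttccttttcctgtg
RPL12 (chr9:127451387-127451416, minus strand): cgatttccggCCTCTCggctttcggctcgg
RPS27 (chr1:153990752-153990781, plus strand): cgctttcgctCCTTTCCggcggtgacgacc
RPL26 (chr17:8383174-8383203, minus strand): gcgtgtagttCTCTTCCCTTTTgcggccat
RPS13 (chr11:17077648-17077677, minus strand): ctctcgctctCCTTTCgttgcctgatcgcc
RPL36AL (chr14:49620607-49620636, minus strand): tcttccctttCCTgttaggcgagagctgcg
RPL7L1 (chr6:42879606-42879635, plus strand): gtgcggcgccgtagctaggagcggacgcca
RPS28 (chr19:8321486-8321515, plus strand): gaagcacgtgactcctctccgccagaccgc
RPL35 (chr9:124861938-124861967, minus strand): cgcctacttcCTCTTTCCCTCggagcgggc

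A start with C followed by at least 4 bases that are each C or T was sought in the sequence read in the direction of transcription. Of the 68 members with an annotated start in the RefSeq table, 47 had at least 1 such start (69.1%). Counted by start, it was found in 47 of the 84 starts of members (56.0%), against 4.06% of all 34943 starts. Of the 62 members that are not paralogues 46 had such a start, and of 6 paralogues 1 did (RPL22L1). Among the 9 members shown, RPL4, RPL36AL, RPL7L1 and RPS28 lacked it at the annotated position. In RPL4 and RPS28 a pyrimidine run lies a few bases downstream of that position. In RPL36AL all bases shown before that position are C or T and join the short run after it. The start used in these cells was not measured.

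Ribosomal protein genes differed widely in level. Levels between genes are given as CPM per kilobase of coding sequence, a scale on which the vehicle control cultures ranged from 19.53 ± 1.196 (SD, n = 3) for RPL17 to 1287 ± 19.7 for RPL37A among members with more than a trace of counts. The 5 highest were the large subunit genes RPL37A, RPL38 (1261 ± 108), RPL35A (1126 ± 68.9) and RPL37 (932.5 ± 55.0) and the small subunit gene RPS6 (986.2 ± 56.2), whose product is the classic substrate of the S6 kinases. RPL37A and RPL38 overlapped in their cultures, and RPS6 and RPL37 did as well. RPL35A overlapped both RPL38 and RPS6, and RPS4X, the next in order, overlapped RPL37. This order depends on the length used, since per kilobase of all annotated exons RPS6 came 1st and RPL37A came 44th.

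At the low end stood RPL7 (25.1 ± 6.51), RPL26L1 (21.4 ± 3.80) and RPL17. The paralogues RPL3L and RPL10L had few or no counts. RPL3L, the copy of RPL3 known from heart and skeletal muscle, had 5 to 12 counts in the vehicle control cultures, and RPL10L, known from testis, had 0 counts in all 17 libraries, where 3 counts would be 0.152 to 0.600 CPM.

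Ribosomal protein genes have many processed pseudogenes, and the authors kept only reads that align to 1 place, so genes with near-identical copies lose reads. For each member the share of 75-base windows of its coding sequence that also occur in transcripts of a gene elsewhere was computed. The median share was 20.5%, with 17 members at 0 and 7 members at 100%, among them RPS27, RPL21, RPL36A, RPS26, RPS28, RPL39 and RPL41. The 33 members with a share under 10% had a median level of 552.9 CPM per kilobase, the 26 with a share of 10 to 50% had 446.4, and the 26 with 50% or more had 168.8. Levels of the last set are therefore levels of the reads that could be placed, and the difference between genes in mappable sequence cannot be told apart from a difference in mRNA. Exons of 9 members also overlap a protein-coding gene on the same strand, including the readthrough genes that join RPL17, RPL36A and RPS10 to a neighbour, and reads in such overlaps can be lost or credited to either gene.

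**Figure D1:**
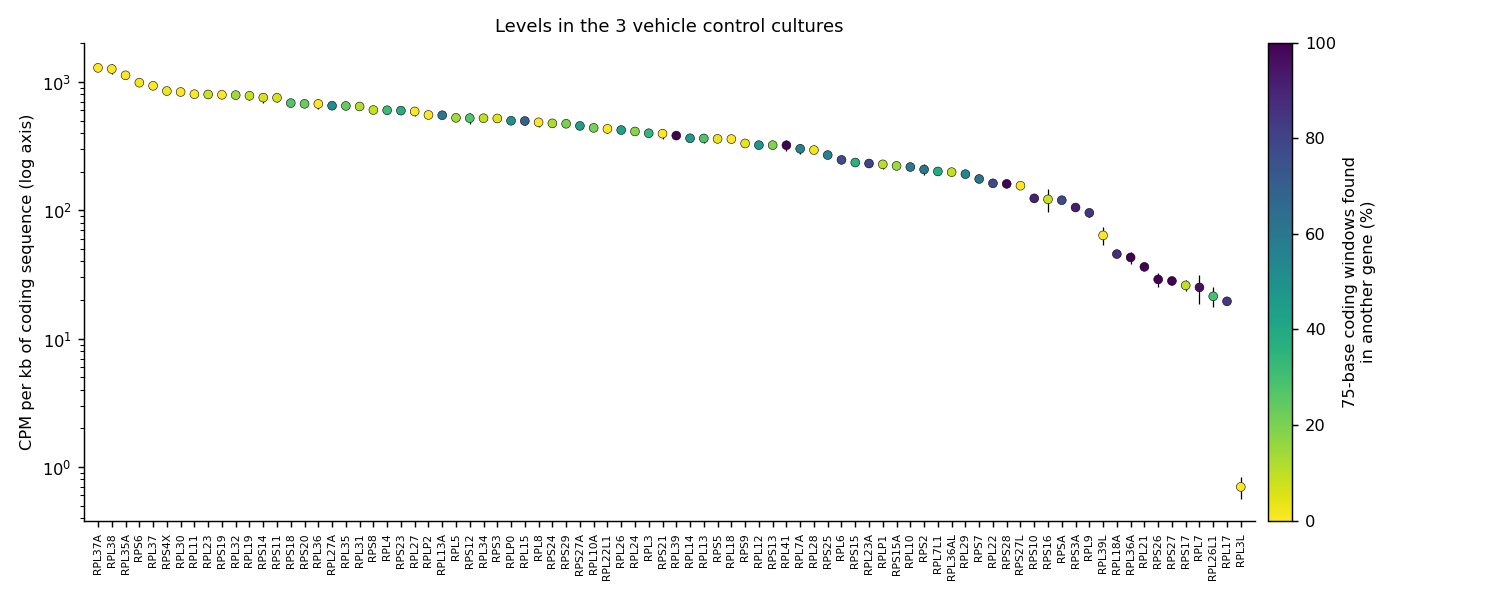
Level of each detected ribosomal protein gene in the 3 vehicle control cultures (mean and SD, CPM per kilobase of coding sequence, log axis), ordered from high to low and coloured by the percentage of 75-base coding windows found in another gene. Genes in dark colours, whose sequence is mostly shared, gather at the right, and RPL3L stands far below the rest.

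P4 was compared with the vehicle control to ask how progesterone changes the epithelial transcriptome. Most ribosomal protein genes were somewhat higher in P4 cultures, with a median log2 fold change over the tested members of 0.15 (1.11-fold), against −0.01 over all genes tested. Of 83 members tested, 36 rose (43.4%, background 26.6% of 16540 genes) and 4 fell (4.82%, background 26.5%) at an adjusted p under 0.05. No tested member differed by more than 1 log2 unit. The cultures did not overlap and lay higher in P4 in 44 members (background 30.2%), and lower in 4 (background 29.7%). In all, 53.0% of genes were called in this comparison, and 48.2% of members. In these bulk samples less RNA per cell and fewer cells of a kind cannot be told apart. The 2 members not tested were RPL3L and RPL10L, which did not reach the minimum count.

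RPL4, a large subunit protein that lines the tunnel through which the new chain leaves, had the largest increase. Its level was 713.0, 777.5 and 822.0 CPM in the vehicle control cultures and 1119, 1072 and 1113 CPM in the P4 cultures. The groups lay apart, with a log2 fold change of 0.51 ± 0.06 (SE, adjusted p = 2.8e-05).

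RPL12, at the base of the stalk, had 149.3, 163.8 and 164.8 CPM in vehicle control and 225.3, 221.3 and 226.8 CPM in P4 cultures. All P4 cultures were above all vehicle controls, by a log2 fold change of 0.48 ± 0.06 (adjusted p = 3.4e-05). RPL26, a protein near the exit of that tunnel, had 176.3, 195.6 and 178.5 CPM against 238.7, 255.9 and 260.9 CPM, and rose by 0.45 ± 0.06 (adjusted p = 1e-04). RPS13, of the small subunit, had 138.6, 152.9 and 145.6 CPM against 193.3, 194.2 and 203.8 CPM and rose by 0.43 ± 0.06 (adjusted p = 1e-04). For these 4 genes the log2 fold change stayed between 0.41 and 0.55 when any 1 culture was left out.

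RPS27, a zinc finger protein of the small subunit, was counted at a much lower level than its relatives. It had 7.08, 7.59 and 6.60 CPM in vehicle control and 7.86, 9.63 and 11.9 CPM in P4 cultures, and rose by 0.47 ± 0.17 (adjusted p = 0.031). All of its coding windows also occur in other genes, its libraries held 38 to 157 counts, and the call was lost in DESeq2, with upper-quartile scaling and when any vehicle control culture or P4 replicate 3 was left out.

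The other direction held for 4 members, which fell. RPL36AL, a paralogue of RPL36A, had 65.6, 60.0 and 63.5 CPM in vehicle control and 40.4, 45.6 and 45.0 CPM in P4 cultures, a log2 fold change of −0.53 ± 0.08 (adjusted p = 0.00013). RPL7L1, a relative of RPL7 that acts in assembly of the large subunit, had 149.3, 155.1 and 156.4 CPM against 125.1, 114.5 and 126.5 CPM, a log2 fold change of −0.34 ± 0.06 (adjusted p = 0.00072). In both genes the groups did not overlap, and no alternative tried ended the call.

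The small subunit gene RPS28 (log2 fold change −0.23 ± 0.09, adjusted p = 0.043) and the large subunit gene RPL35 (−0.18 ± 0.06, adjusted p = 0.033) fell less. RPS28 had 31.3, 34.1 and 34.3 CPM in vehicle control and 30.3, 27.8 and 28.0 CPM in P4 cultures, and RPL35 had 233.3, 255.3 and 231.1 CPM against 213.2, 216.8 and 211.0 CPM. The groups lay apart in both. Both calls were lost in DESeq2, with no filter on low counts, with all 4 groups in the fit, with offsets for gene length and GC content, and without P4 replicate 3 or vehicle control replicate 1 or 2. The RPS28 call was also lost with the replicate block and without P4 replicate 2 or vehicle control replicate 3. With the offsets the log2 fold change was −0.1 for RPS28 and −0.03 for RPL35, and in DESeq2 it was −0.22 and −0.17.

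The small subunit had 20 of 31 members higher (64.5%, against 26.6% of all genes) and 1 lower (3.23%, against 26.5%), with a median log2 fold change of 0.22. The large subunit had 15 of 43 higher (34.9%, nearer to that of all genes) and 1 lower (2.33%), with a median of 0.13. The difference between the subunits was not tested. Among members with the TOP start 23 of 47 rose (48.9%) and 1 fell (median 0.16), and among tested members with an annotated start and no such run 6 of 20 rose and 3 fell (median 0.10), where 30.0% higher is near the 26.6% of all genes. The summed level of genes with RPL names was set against that of genes with RPS names, stalk genes and paralogues included. The ratio was 1.68 to 1.69 in the vehicle control libraries and 1.62 to 1.66 in the P4 libraries, which do not overlap. It was 1.646 to 1.679 in Control and 1.652 to 1.661 in Nap only libraries, which both overlap the P4 libraries.

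**Figure D2:**
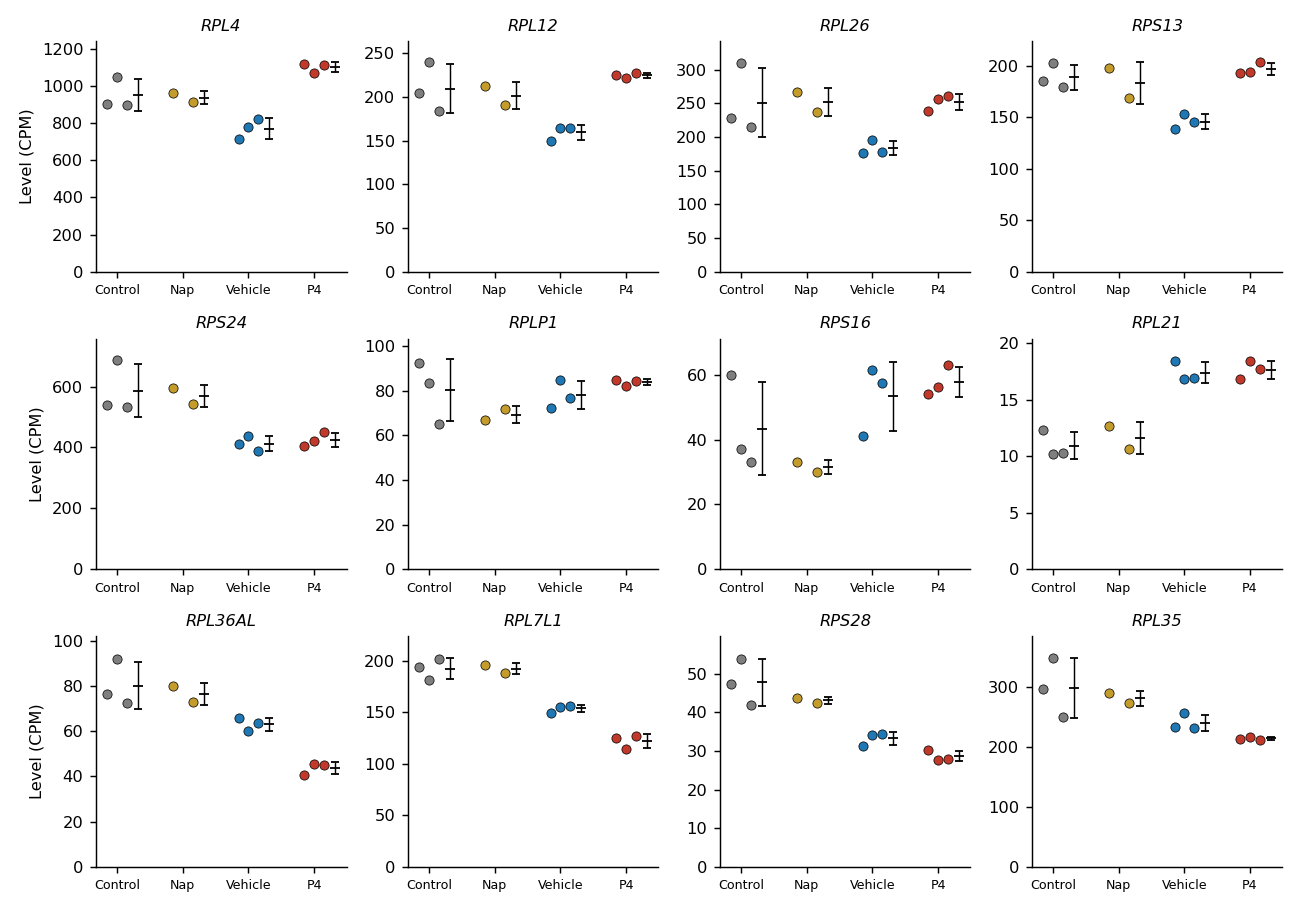
Level (CPM) of 12 ribosomal protein genes in each culture of the 4 labelled groups, with the mean and SD beside the points. RPL4, RPL12, RPL26 and RPS13 are lowest in the vehicle control, RPS24 is low in both the vehicle control and P4, RPL21 is high in both, and the means of RPL36AL, RPL7L1, RPS28 and RPL35 step down from Control to vehicle control to P4.

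The size of the increase depends on how libraries are scaled. As a share of all counts, members made up 1.80 to 1.84% in the vehicle control libraries and 1.83 to 2.00% in the P4 libraries, which overlap. After TMM scaling, their summed level was 16840, 18130 and 17918 CPM in vehicle control and 20401, 20084 and 20912 CPM in P4 cultures, which do not overlap, a ratio of the means of 1.16. With upper-quartile scaling the median of the members was 0.06 and the median of all genes −0.10, and 24 members rose and 7 fell. The share of all genes called under that scaling is not given.

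The vehicle control was compared with Control and with Nap only cultures to see where the reference of the main comparison lies. Ribosomal protein genes were lower in the vehicle control than in either. Of 84 members tested against Control, 53 fell (63.1%, background 10.7% of 16673 genes) and 2 rose (background 11.9%), with a median log2 fold change of −0.28 against −0.01 over all genes. The cultures did not overlap and lay lower in 59 members (background 22.8%) and higher in 2 (background 16.6%), and 22.6% of all genes were called. Against Nap only, 54 of 84 fell (64.3%, background 11.2% of 16935 genes) and 4 rose (background 12.7%), with a median of −0.23 against 0.00. The cultures lay apart and lower in 66 members (background 27.3%) and apart and higher in 5 (background 22.3%), and 23.8% of all genes were called. Both comparisons share the vehicle control cultures and are not independent of each other or of the P4 comparison.

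The summed level was 21043, 24508 and 19682 CPM in Control and 21664 and 20378 CPM in Nap only cultures, and every vehicle control culture was below all of these. The ratio of the means was 0.811 against Control and 0.839 against Nap only. Control replicate 2 was the highest of the labelled libraries. In raw shares of all counts, where no scaling enters, Control had 2.06 to 2.36% and Nap only 2.13 to 2.29%, also all above the vehicle control libraries. In these shares the P4 libraries (1.83 to 2.00%) also lay below all Control and Nap only libraries. Mitochondrially encoded genes took 21.4 to 28.5% of the counts in Control, 25.2 to 27.0% in vehicle control and 25.6 to 26.8% in P4 libraries, and with those genes left out before fitting 51 members fell against Control.

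Taking gene by gene, the 3 vehicle control cultures lay below all 8 other labelled cultures in 36 of 83 members (43.4%, against 7.10% of 16540 genes), and above all 8 in 0 members (5.41% of genes). The mean of the vehicle control fell below the whole range of the 5 Control and Nap only cultures in 67 members, or 80.7%, against 30.3% of all genes. The mean of the P4 cultures fell within that range in 44 members (53.0%, against 25.4% of all genes), below it in 34 (41.0%, against 37.8%) and above it in 5 (6.02%, against 36.8%). The share below the range in P4 cultures is near that of all genes.

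**Figure D3:**
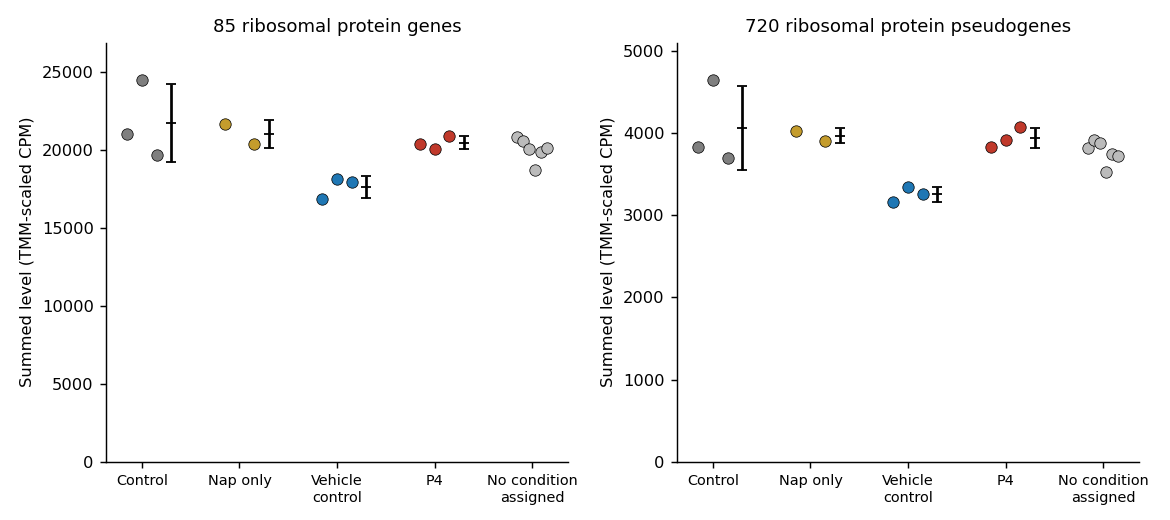
Summed level (CPM after TMM scaling) of the 85 ribosomal protein genes (left) and of 720 pseudogenes of such genes (right) in each library, with the mean and SD of each labelled group. The vehicle control libraries lie below all other labelled libraries on both panels, and Control replicate 2 lies highest.

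RPS24, a small subunit gene, RPL39L and RPL26 show how single members differed from Control. RPS24 had 539.7, 685.5 and 534.2 CPM in Control and 410.5, 437.6 and 389.1 CPM in vehicle control cultures, a log2 fold change of −0.48 ± 0.09 (adjusted p = 0.00072). RPL39L, a copy of RPL39 known from testis, had 12.4, 15.1 and 15.3 CPM against 10.8, 10.4 and 8.05 CPM, a log2 fold change of −0.54 ± 0.14 (adjusted p = 0.0088). RPL26 fell by 0.42 on the log2 scale (SE 0.12, adjusted p = 0.025). In each of these genes the groups lay apart.

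The 2 members that rose in the vehicle control against Control were RPS27 and RPL21, both with every coding window shared with other genes. RPL21 had 12.4, 10.2 and 10.3 CPM in Control, 12.7 and 10.7 CPM in Nap only, 18.5, 16.8 and 16.9 CPM in vehicle control and 16.9, 18.4 and 17.7 CPM in P4 cultures. The vehicle control exceeded Control by a log2 fold change of 0.68 ± 0.12 (adjusted p = 0.00046). RPS27 had 3.39, 4.44 and 4.95 CPM in Control and 4.27 and 4.28 CPM in Nap only cultures, below the vehicle control values given above, with a log2 fold change of 0.78 ± 0.18 (adjusted p = 0.0042).

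RPS16 and RPLP1 rose in the vehicle control against Nap only (RPS16 0.83 ± 0.12, adjusted p = 0.00033, RPLP1 0.20 ± 0.07, adjusted p = 0.042) and did not pass the test against Control, and the difference between those contrasts was not tested. RPS16, of the small subunit, had 59.8, 37.2 and 33.1 CPM in Control, 33.0 and 29.9 CPM in Nap only and 41.2, 61.4 and 57.3 CPM in vehicle control cultures. Control and vehicle control overlapped.

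Numbers of calls in these comparisons changed with the cultures used. With 1 vehicle control culture left out, 26 (replicate 1), 32 (replicate 2) or 27 (replicate 3) members fell against Control, and with Nap only replicate 1 left out 31 fell against Nap only. The median log2 fold change stayed between −0.32 and −0.20 against Control and between −0.31 and −0.17 against Nap only. With all 4 groups in 1 fit, 24 members fell against Nap only. The share of all genes called in each of these fits is not given, so these counts stand without a background.

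Against Control and Nap only, most members were not called in P4 cultures. Of 83 members tested against Control, 2 rose (2.41%, background 26.8% of 16620 genes) and 15 fell (18.1%, background 28.0%), with a median log2 fold change of −0.10 against −0.02 over all genes. Without Control replicate 2 the median was −0.01, without Control replicate 3 it was −0.16, and with length and GC offsets or upper-quartile scaling it was −0.04 or −0.17. The cultures lay apart and higher in 4 members (background 29.1%) and apart and lower in 22 (background 32.1%), and 54.8% of all genes were called. Against Nap only, 6 of 84 rose (7.14%, background 24.8% of 16987 genes) and 11 fell (13.1%, background 24.9%), with a median of −0.04 against −0.01. The 11 include RPL3L, whose call is not used, and the other 10 also fell against Control. Of the 84 tested, 17 lay apart and higher (background 33.1%) and 24 apart and lower, RPL3L included (background 34.9%). In all, 49.7% of genes were called. Among the 77 members that are not paralogues, 6 rose and 6 fell against Nap only (7.79% each). A call that was not made does not show that the groups were equal. For RPL26, for example, the 95% interval of the log2 fold change of P4 against Control ran from −0.22 to 0.26.

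**Figure D4:**
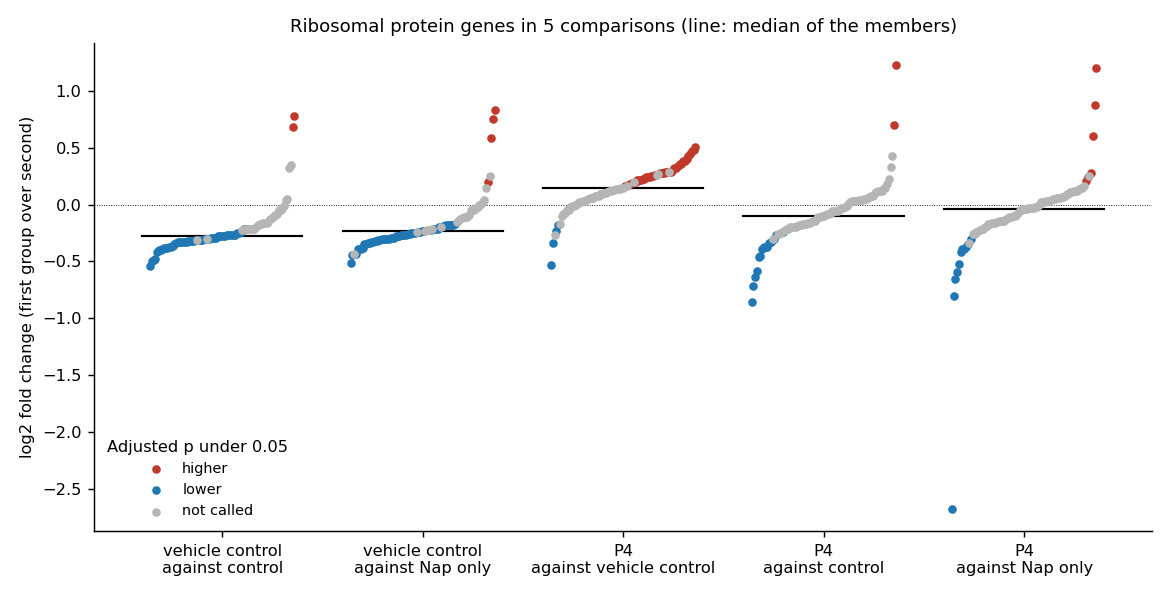
log2 fold change of each tested ribosomal protein gene in the 5 comparisons, in increasing order within a comparison, coloured by the call at an adjusted p under 0.05, with a line at the median of the members. The median lies at −0.28 and −0.23 for the vehicle control against Control and Nap only, at 0.15 for P4 against vehicle control, and at −0.10 and −0.04 for P4 against Control and Nap only.

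The 4 members that were lower in P4 than in vehicle control cultures had log2 fold changes further below 0 against Control. RPL36AL had 76.3, 91.8 and 72.3 CPM in Control and 79.8 and 72.9 CPM in Nap only cultures, and the log2 fold change of P4 was −0.86 ± 0.10 against Control (adjusted p = 2.2e-06) and −0.80 ± 0.10 against Nap only (adjusted p = 5.3e-05). RPL7L1 had 193.8, 181.2 and 201.7 CPM in Control and 196.1 and 188.4 CPM in Nap only cultures, and the log2 fold change was −0.64 ± 0.09 (adjusted p = 1.3e-05) and −0.65 ± 0.08 (adjusted p = 7.6e-05). For both genes the vehicle control cultures lay between the Control and the P4 cultures with no overlap on either side.

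RPS28 had 47.4, 54.0 and 42.0 CPM in Control (log2 fold change of P4 −0.72 ± 0.11, adjusted p = 2.5e-05). RPL35 had 296.3, 348.3 and 249.2 CPM in Control (−0.46 ± 0.11, adjusted p = 0.0013). RPS24, for which P4 and vehicle control cultures overlapped, was also lower in P4 than in Control (−0.45 ± 0.10, adjusted p = 0.0014). RPS27 (1.23 ± 0.19, adjusted p = 3.6e-05) and RPL21 (0.70 ± 0.13, adjusted p = 2e-04) were the members that rose, and RPS27 was the single member beyond 1 log2 unit in that comparison.

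The stalk proteins RPLP0, RPLP1 and RPLP2 recruit the elongation factors to the ribosome. RPLP0 rose in P4 against vehicle control, from 480.2, 462.2 and 479.2 CPM to 596.2, 569.2 and 579.3 CPM (log2 fold change 0.29 ± 0.06, adjusted p = 0.0013). RPLP1 (0.09 ± 0.07, adjusted p = 0.30) and RPLP2 (0.12 ± 0.06, adjusted p = 0.13) did not pass the test, and RPLP2 passed it with length and GC offsets (0.25). RPL5 and RPL11 bind the smallest ribosomal RNA. RPL5 had 455.1, 462.6 and 486.3 CPM in vehicle control and 615.7, 572.4 and 598.2 CPM in P4 cultures and rose by 0.34 ± 0.06 (adjusted p = 0.00045). RPL11 had 419.7, 449.2 and 416.7 CPM against 462.3, 468.2 and 496.0 CPM, and although the cultures lay apart it missed the threshold (0.14 ± 0.06, adjusted p = 0.063), which it passed without P4 replicate 1 or 2 (0.16 each). Both fell in the vehicle control against Control, by 0.28 (RPL5) and 0.33 (RPL11) on the log2 scale.

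The paralogues carry an L at the end of their names and resemble a main gene, their partner. Against Control, 5 of 7 tested fell in the vehicle control (71.4%, against 10.7% of all genes, median −0.31). In P4 against vehicle control none rose and 2 of 6 fell (33.3%, near the 26.5% of all genes, median −0.13). There 3 of the 6 lay above 0 and 3 below. RPL39L passed the test as higher with length and GC offsets (0.41) and without P4 replicate 2 (0.39). Of the 8 genes the paralogues derive from, 4 rose (50.0%, against 26.6% of all genes) and 0 fell (median 0.22). In P4 against Control 4 of 6 paralogues fell (66.7%, against 28.0% of all genes, median −0.47). Against Nap only 4 of 6 fell, leaving out RPL3L, where 24.9% of all genes fell. A difference between paralogues and their partners was not tested. Of the partners, RPL3 (0.28 ± 0.06, adjusted p = 0.0022), RPL10 (0.25 ± 0.06, adjusted p = 0.0055), RPL26 and RPS27 rose in P4 against vehicle control. RPL7 (−0.07 ± 0.16), RPL22 (0.12 ± 0.08), RPL36A (0.02 ± 0.12) and RPL39 (0.20 ± 0.13) did not pass the test, and RPL39 passed it without P4 replicate 2 (0.33). RPL17 (0.08 ± 0.13) and RPS10 (0.06 ± 0.07), which like RPL36A overlap a readthrough gene, did not either.

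RPL22L1, the copy of RPL22, had 201.2, 209.0 and 214.1 CPM in Control, 164.9, 164.9 and 143.3 CPM in vehicle control and 150.4, 159.8 and 167.7 CPM in P4 cultures. P4 and vehicle control overlapped, and P4 was below Control by a log2 fold change of −0.37 ± 0.09 (adjusted p = 0.0017). RPL26L1 was at 11.31 to 11.98 CPM in Control and 6.251 to 8.73 CPM in P4 cultures (−0.58 ± 0.15, adjusted p = 0.0041), while RPL26 itself was at 0.02 ± 0.12 in that comparison (adjusted p = 0.90). RPS27L, the copy of RPS27, was at 42.3 ± 2.06 CPM (n = 3) in P4 and 39.2 ± 1.27 CPM in vehicle control cultures (0.11 ± 0.08, adjusted p = 0.29).

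RPL3L had 11 to 18 counts in Control, 13 to 18 in Nap only, 5 to 12 in vehicle control and 1 to 3 in P4 libraries. In P4 against Nap only it passed the filter through its Nap only counts alone, so its call there is not used, and at these counts no fold is given.

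**Figure D5:**
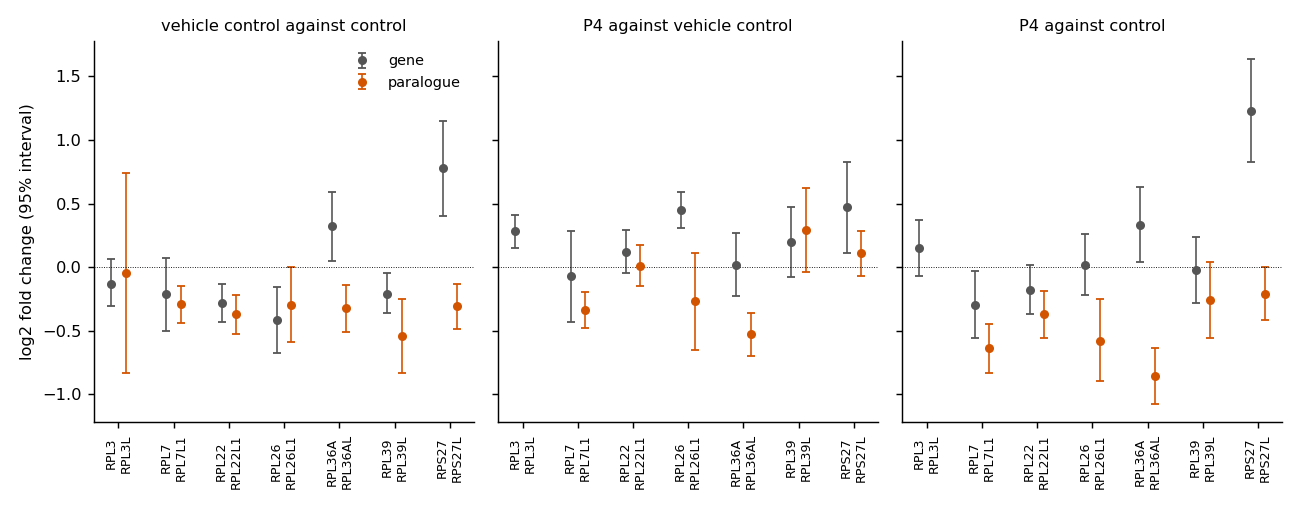
log2 fold change with its 95% interval for 7 ribosomal protein genes (grey) and their paralogues (orange) in 3 comparisons. Where a point is missing the gene was not tested. In P4 against vehicle control and against Control, RPL7L1, RPL26L1 and RPL36AL lie below 0 while RPL26 and RPS27 lie at or above it. In P4 against vehicle control 3 paralogues, RPL39L and RPS27L among them, lie above 0. There the partner RPL7 lies below 0, and RPL26L1 was not called. In P4 against Control all 6 tested paralogues lie below 0. Of the 8 partners, RPL10 not being shown, 3 lie below 0 in that comparison and 5 above.

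Pseudogenes of ribosomal protein genes were also lowest in the vehicle control. Their summed level over 720 annotated pseudogenes was 3700 to 4645 CPM in Control, 3905 and 4028 CPM in Nap only, 3154 to 3343 CPM in vehicle control and 3833 to 4076 CPM in P4 libraries, and their median log2 fold changes were −0.28 in the vehicle control against Control (158 tested, 33 fell and 5 rose) and 0.23 in P4 against vehicle control (152 tested, 38 rose and 4 fell). The 25.0% of pseudogenes that rose in P4 is near the 26.6% of all genes, while 2.63% fell against 26.5% of all genes. In the vehicle control against Control 20.9% fell and 3.16% rose, against 10.7% and 11.9% of all genes. Reads of a parent gene and of its pseudogenes cannot always be told apart, and the part of this in the values above was not tested. Members with under 10% of windows shared had medians of 0.16 in P4 against vehicle control and −0.30 in the vehicle control against Control.

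Ribosomal proteins with other names were counted apart. RACK1, a scaffold on the small subunit, rose in P4 against vehicle control from 699.7 ± 8.91 to 883.3 ± 19.6 CPM (0.33 ± 0.06, adjusted p = 0.00033). FAU, which encodes a ribosomal protein fused to a ubiquitin-like moiety, did not pass the test (−0.03 ± 0.08, adjusted p = 0.77).

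Translation factors whose mRNAs also carry TOP motifs were tested as a list. Of 14 tested, 8 rose and 1 fell in P4 against vehicle control (57.1% and 7.14%, against 26.6% and 26.5% of all genes, median 0.36). In the vehicle control against Control 2 rose and 5 fell (14.3% and 35.7%, against 11.9% and 10.7%, median −0.15), and in P4 against Control 5 rose and 0 fell (35.7%, against 26.8%, median 0.10). EEF2, the factor that moves the ribosome along the mRNA, rose from 1682 ± 60.4 to 2482 ± 157 CPM (log2 fold change 0.55 ± 0.06, adjusted p = 1.4e-05), and EIF3L, a subunit of an initiation factor, rose by 0.55 ± 0.06 (adjusted p = 1.8e-05). HNRNPA1, an RNA-binding splicing regulator in this list, fell by 0.56 on the log2 scale (adjusted p = 7.3e-05).

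Genes of the mTOR pathway and of TOP translation were mixed, with 9 of 21 tested higher (42.9%) and 6 lower (28.6%) in P4 against vehicle control, where 26.6% and 26.5% of all genes were called. MTOR (0.04 ± 0.07, adjusted p = 0.64) and LARP1 (0.01 ± 0.07, adjusted p = 0.91) did not pass the test. SESN2, an inhibitor of mTOR signalling that is induced by stress, rose from 22.8 ± 0.227 to 93.9 ± 2.80 CPM (2.03 ± 0.08, adjusted p = 2e-09), and EIF4EBP1, which blocks the cap-binding factor when mTOR is inactive, rose from 40.9 ± 3.84 to 113.4 ± 9.79 CPM (1.45 ± 0.09, adjusted p = 9.2e-08). Its relative EIF4EBP2 fell (−1.32 ± 0.13, adjusted p = 1.4e-05), as did SESN3 (−0.39 ± 0.06, adjusted p = 0.00019).

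Among 11 transcription regulators linked to the family 7 rose (63.6%, against 26.6% of all genes) and 3 fell (27.3%, against 26.5%). MYC rose from 68.7 ± 5.01 to 104.8 ± 5.37 CPM (0.60 ± 0.07, adjusted p = 3.2e-05), and MXD1, a repressor that competes with MYC for its partner MAX, rose as well (1.31 ± 0.18, adjusted p = 7.2e-05). The repressor MXD4 (−1.26 ± 0.09, adjusted p = 5.1e-07) and MYCN (−1.62 ± 0.21, adjusted p = 4.6e-05) fell.

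Chaperones that escort single ribosomal proteins were split, with 4 of 10 higher and 4 lower (26.6% and 26.5% of all genes were called so). GRWD1, which escorts RPL3, fell from 41.8 ± 1.46 to 26.5 ± 3.21 CPM (−0.67 ± 0.10, adjusted p = 1e-04), and BCCIP, which escorts RPL23, fell by 0.36 (adjusted p = 0.0063). NACA, which meets new chains at the ribosome, rose by 0.28 ± 0.06 (adjusted p = 0.0021), and PDCD2L rose by 0.59 ± 0.18 (adjusted p = 0.014), a call lost without P4 replicate 3 and without vehicle control replicate 2 (0.39).

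A list of 7 genes covered the sensing of surplus ribosomal proteins or faulty ribosomes and the response to them. Of these 5 rose (71.4%, against 26.6% of all genes) and 1 fell (14.3%, against 26.5%). CDKN1A, an inhibitor of the cell cycle, rose from 82.4 ± 4.30 to 224.6 ± 22.3 CPM (1.44 ± 0.08, adjusted p = 4.6e-08), and the ubiquitin ligase UBE2O fell by 0.42 (adjusted p = 0.0049). In the same comparison 3 of 5 epithelial markers fell and 1 rose, with KRT8 at −0.70 ± 0.08 (adjusted p = 1.6e-05) and CDH1 at 0.24 ± 0.08 (adjusted p = 0.018). The CDH1 call was lost with upper-quartile scaling (0.15) and without P4 replicate 3 or vehicle control replicate 1 or 2. COL1A1 was the 1 of 2 tested markers of other cells that fell (−0.44 ± 0.11, adjusted p = 0.0045). Their part in the values of the ribosomal protein genes was not tested.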

How the data were processed

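RNA was sequenced from 17 Ishikawa cultures as single-end 75-base reads of stranded total RNA libraries. The authors trimmed reads with Cutadapt, aligned them with Subread, kept unique alignments and deposited raw counts of reads, made by featureCounts on the GENCODE 31 annotation and not normalized. Tool versions and the strand setting are not given in the sources used here. Each of the 11 columns compared matched 1 sample by its title and description. The other 6 matched by description, against their titles.

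Gene names and coding lengths came from GENCODE 29 (58542 of 60662 genes matched). Counts were tested with edgeR 4.0.16 (TMM normalization, filterByExpr with a minimum count of 10, robust quasi-likelihood fits of the 2 groups compared, Benjamini-Hochberg adjustment over all genes tested, called at an adjusted p under 0.05). SE is the log2 fold change divided by the square root of F. CPM values were TMM-scaled over all 17 libraries, and they are not corrected for mappability. No 2 replicates agreed within sampling noise (smallest chi-square per degree of freedom 1.48), and p-values measure the spread between these cultures. The script was tested on simulated data. DESeq2 1.42.0, RLE and upper-quartile scaling, other filters, all 4 groups in 1 fit, the replicate block, length and GC offsets, fits without mitochondrially encoded genes and leaving out each culture were alternatives. Members, lists and tests were chosen with earlier results of these data known. Named were the 5 members with the highest and the lowest log2 fold changes among called members whose P4 and vehicle control cultures lay apart, the 5 with the highest and lowest levels, stalk genes, RPL5, RPL11, paralogues with their partners and readthrough members, and in each other list the 2 most significant genes per direction, besides MYC, MTOR, LARP1, RACK1 and FAU (1 gene of this rule and 1 of the lists are not reported here). RPS24, RPS16 and RPL21 were chosen after their values were seen. Floors of 3 counts cover counting error only.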

Additional observations from a re-analysis of the deposited data

How the results depend on the processing

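Medians of the members kept their direction under every alternative run. Counts of members called under alternatives are given without the share of all genes called in the same fit. Of the named genes in P4 against vehicle control, 829 values under alternatives stayed on the same side of the threshold, 31 lost the call and 10 gained it. In genes that were not called the sign could change, as in RPL7, which ran from −0.2 to 0.17 with single cultures left out. Upper-quartile scaling gave a median of 0.06 and 7 members lower in P4 against vehicle control, and 26 lower against Control. Against Nap only it gave 3 higher, 25 lower and a median of −0.12. The median of all genes under that scaling was −0.1, −0.08 and −0.09 in these 3 comparisons. DESeq2 and length and GC offsets each left 2 members lower in P4 against vehicle control. Against Control, RLE, DESeq2, all 4 groups in the fit and leaving out mitochondrially encoded genes each gave 4 members higher in P4, and length and GC offsets gave 9 (13 against Nap only). All 4 groups in the fit gave 2 higher and 24 lower in the vehicle control against Nap only.

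With each culture left out, the members higher and lower ranged from 27 to 42 and 2 to 7 in P4 against vehicle control, 2 to 4 and 12 to 21 against Control, 2 to 6 and 6 to 19 against Nap only, 2 to 4 and 26 to 64 in the vehicle control against Control, and 3 to 4 and 31 to 56 against Nap only, where the median ran from −0.31 to −0.17. In P4 against vehicle control the 2 lower members came without vehicle control replicate 1 and the 7 without P4 replicate 1. Against Control the 4 higher members came without Control replicate 1 or 2, in P4, and without Control replicate 1, in the vehicle control. In P4 against Nap only, 19 members were lower without P4 replicate 1 and 6 without Nap only replicate 1, and 3 were higher without P4 replicate 3 or Nap only replicate 1 and 2 without Nap only replicate 2.

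Deviations of same-numbered cultures correlated by −0.044 to 0.048 in P4 against vehicle control and by −0.001 to 0.076 in the vehicle control against Control. There 1 of 3 and 2 of 3 correlated best with their own number. Cultures of different numbers correlated by −0.086 to 0.063 and by −0.074 to 0.028. Same-numbered cultures correlated by 0.049 to 0.075 in the vehicle control against Nap only. In P4 they correlated by −0.089 to −0.052 against Nap only and by −0.089 to −0.043 against Control. With so few cultures per group, these values cannot decide whether the replicate numbers pair the cultures. With the replicate block, 36 members were higher and 3 lower in P4 against vehicle control, 52 lower in the vehicle control against Control, and 3 higher in P4 against Nap only.

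Per kilobase of exonic length, a setting chosen after seeing the data, RPL37A came 44th, RPL38 31st, RPL35A 15th and RPL37 56th. As a share of counts without mitochondrially encoded genes, members held 2.92% in Control, 2.87% in Nap only, 2.46% in vehicle control and 2.62% in P4 libraries, and 3.10%, 3.05%, 2.61% and 2.80% of the counts of protein-coding genes. The causes of these changes were not tested. RPL3L and RPL10L had few or no counts and RPS27 had low counts, so their values are imprecise. The part of sequencing depth in this was not tested.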

Other observations

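The 6 cultures whose labels contradict each other, and which entered no comparison, had a summed level of the 85 ribosomal protein genes between 18709 and 20812 CPM (median 20094), or 1.84 to 2.14% of all counts. RPS24 ran from 402.6 to 570.7 CPM, RPS27 from 3.89 to 12.2 CPM (median 7.05), RPL22L1 from 156.6 to 196.3 CPM and RPL11 from 458.7 to 532.5 CPM. RPL3L had 0 to 21 counts.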
